A study of Mus musculus with 7 samples.

Results

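The 10 genes described here encode the main neuropeptide precursors of the spinal cord. They are *Tac1*, *Penk*, *Pdyn*, *Sst*, *Nts*, *Npy*, *Grp*, *Cck*, *Calca* and *Calcb*, listed by name and found by their GENCODE M21 symbols, each with 1 identifier, among the 55487 genes of the count table. All 10 passed the filter on low counts that left 18449 genes for testing. Cervical spinal cords of 8-week-old mice were sequenced as poly(A) RNA, with 4 libraries from *Neat1*-KO; hSOD1G93A mice and 3 from *Neat1*-WT; hSOD1G93A mice. All 7 mice therefore carry the transgene hSOD1G93A, human SOD1 with a mutation of familial ALS, a multicopy transgene that is not limited to neurons, and mice without it were not analysed here. In the *Neat1*-KO mice the gene of the long non-coding RNA *Neat1*, the scaffold of nuclear paraspeckles, is knocked out, with no limit to a cell type given in the sources used here. Libraries are called by genotype and by the replicate number in their labels, 1 to 4 for *Neat1*-KO and 2 to 4 for *Neat1*-WT. The question was whether the peptide genes differ between the genotypes, and how far they vary between mice of the same genotype.

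Neuropeptides are cut from larger precursors in dense-core vesicles and act on G protein-coupled receptors. In the dorsal horn, where sensory fibres end, substance P from *Tac1*, gastrin-releasing peptide from *Grp*, neurotensin from *Nts* and cholecystokinin from *Cck* are made mostly by excitatory interneurons. The opioid precursor genes *Penk* and *Pdyn* and the genes of somatostatin and neuropeptide Y also mark sets of dorsal horn interneurons. *Calca* and *Calcb* encode the α and β forms of calcitonin gene-related peptide (CGRP), which are known from sensory ganglion neurons, whose cell bodies lie outside the cord, and from motor neurons within it. Because the tissue is bulk cord, fewer cells of a type and less RNA per cell cannot be told apart.

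None of the 10 genes passed the threshold between the genotypes, and the libraries of the genotypes overlapped for all 10. The largest difference was in *Calca*, which was lower in *Neat1*-KO mice by 0.38 on the log2 scale, and it depended on the high level in 1 *Neat1*-WT library. The levels of *Tac1*, *Penk*, *Pdyn*, *Sst*, *Nts*, *Npy*, *Grp* and *Cck* had log2 fold changes between -0.14 and 0.13, with 95% intervals that did not reach 0.58 in either direction. Mice of the same genotype also differed. In *Neat1*-WT replicate 4 all 10 genes were below the mean of their genotype, while 6 of the 10 had their highest level in *Neat1*-WT replicate 2. How many of all tested genes do the same was not counted, so these numbers are not read as a trait of the peptide genes. With 3 *Neat1*-WT libraries, a high value in 1 also puts the others lower against the mean.

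*Calca* and *Calcb* lie on chromosome 7 and share much of their sequence, so the part of the transcript that encodes CGRP is shown for both. Only uniquely mapped reads were counted, and a read that fits both genes equally well is missing from both. The stretch below has 142 bases of exon 4 in transcripts Calca-201 and Calcb-201, at chr7:114632458-114632599 on the minus strand and chr7:114721975-114722116 on the plus strand (GRCm38). Capitals mark the 5 bases that differ, and the genes are 96.5% identical here.
Calca: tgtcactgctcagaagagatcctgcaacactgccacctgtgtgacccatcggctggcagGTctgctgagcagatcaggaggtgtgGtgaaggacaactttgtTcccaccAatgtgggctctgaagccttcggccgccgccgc
Calcb: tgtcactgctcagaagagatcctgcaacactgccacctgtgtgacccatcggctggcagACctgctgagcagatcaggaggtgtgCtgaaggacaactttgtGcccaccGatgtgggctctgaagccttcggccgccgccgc
The longest run without a difference is 59 bases in this stretch and 61 bases between any protein-coding transcripts of the genes. Over the best BLAST alignment of their transcripts, 449 bases, identity was 81.5%. How many reads of the shared exon are missing from both genes is therefore uncertain. None of the 10 genes had another gene with at least 90% identity over at least 50% of a transcript. *Penk* overlaps 233 exonic bases of *A830012C17Rik* on the opposite strand, and the strand setting of the counting is not given in the sources used here. *Calca* also encodes calcitonin by alternative splicing, which counts per gene do not tell apart from CGRP.

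Several peptide genes are textbook targets of cAMP signalling through the cAMP response element (CRE), so the promoters were searched for it. RefSeq promoter sequences (GRCm38.p6, 250 bases before to 50 after a start site) were matched for 7 of the 10 genes. *Penk*, *Grp* and *Calcb* had no promoter at hand and were not searched. The 7 genes had 8 promoters in all. The full CRE, TGACGTCA, was found in 1 of them, that of *Sst*, and in 1.79% of 32851 promoters of all genes. The variant TGCGTCA, searched on both strands, was found in the promoters of *Calca*, *Cck* and *Tac1* and in 2.12% of all promoters. The windows below show these motifs in capitals with 30 bases on either side, for *Sst* at chr16:23890855-23890922 (minus strand), *Cck* at chr9:121495707-121495773 (minus strand), *Calca* at chr7:114636386-114636452 (minus strand) and *Tac1* at chr6:7554832-7554898 (plus strand). The motif starts 48, 49, 65 and 199 bases before the start site, respectively.
Sst: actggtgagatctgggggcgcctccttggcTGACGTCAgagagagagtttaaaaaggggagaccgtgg
Cck: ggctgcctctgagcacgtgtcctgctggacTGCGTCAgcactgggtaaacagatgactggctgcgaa
Calca: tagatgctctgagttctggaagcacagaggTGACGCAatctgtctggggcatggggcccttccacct
Tac1: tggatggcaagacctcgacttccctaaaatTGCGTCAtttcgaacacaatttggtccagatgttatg
In *Calca* the motif lies on the other strand and is printed as its reverse complement, TGACGCA. None of these 4 genes was called, and their log2 fold changes were 0.051, -0.059, -0.38 and 0.13 in the order shown.

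The libraries held between 19661878 and 26031517 counts, TMM factors ranged from 0.991 to 1.008 and mitochondrial genes held 3.69% to 5.24% of the counts. *Neat1* itself had 4.04 to 5.52 CPM across the *Neat1*-KO and 80.5 to 118 CPM in *Neat1*-WT libraries, so each library was on the side its label gives. Here CPM are counts scaled to a common library total with TMM factors. Calls follow the thresholds of the study, 0.1 for the adjusted p and 0.58 for the size of the log2 fold change, in edgeR's quasi-likelihood test. They were met by 6 of 18449 genes (0.0325%) and by 0 of the 10 peptide genes, also in DESeq2 and limma-voom. An unadjusted p under 0.05 was found for 4.64% of the genes, and 5.47% had libraries that did not overlap between the genotypes. Each p of edgeR sets the difference between the genotypes against the spread between these 7 mice, estimated with information shared across genes.

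Levels per length were compared first. In RPKM, CPM divided by the summed exon length in kilobases, *Sst* was highest with a mean of 121 RPKM over the 7 libraries, and *Penk* followed with 85.5 RPKM. *Sst* was above *Penk* in 7 of 7 libraries, although their ranges of 92.0 to 141 and 72.4 to 94.5 RPKM overlapped. *Calca* (26.9 RPKM) and *Cck* (19.5 RPKM) kept their order in 7 of 7 libraries. *Npy* (14.2 RPKM) and *Nts* (13.6 RPKM) did not differ beyond their spread, since *Npy* was the higher gene in 5 of 7 libraries. *Nts* was above *Calcb* (9.92 RPKM) in 7 of 7 libraries, and *Calcb* was above *Tac1* (6.77 RPKM) in 6 of 7. *Pdyn* (4.39 RPKM) and *Grp* (3.66 RPKM) were lowest, with *Pdyn* above *Grp* in 6 of 7. These levels use every annotated exon, so a gene with a long rarely used exon is set too low.

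**Figure D1:**
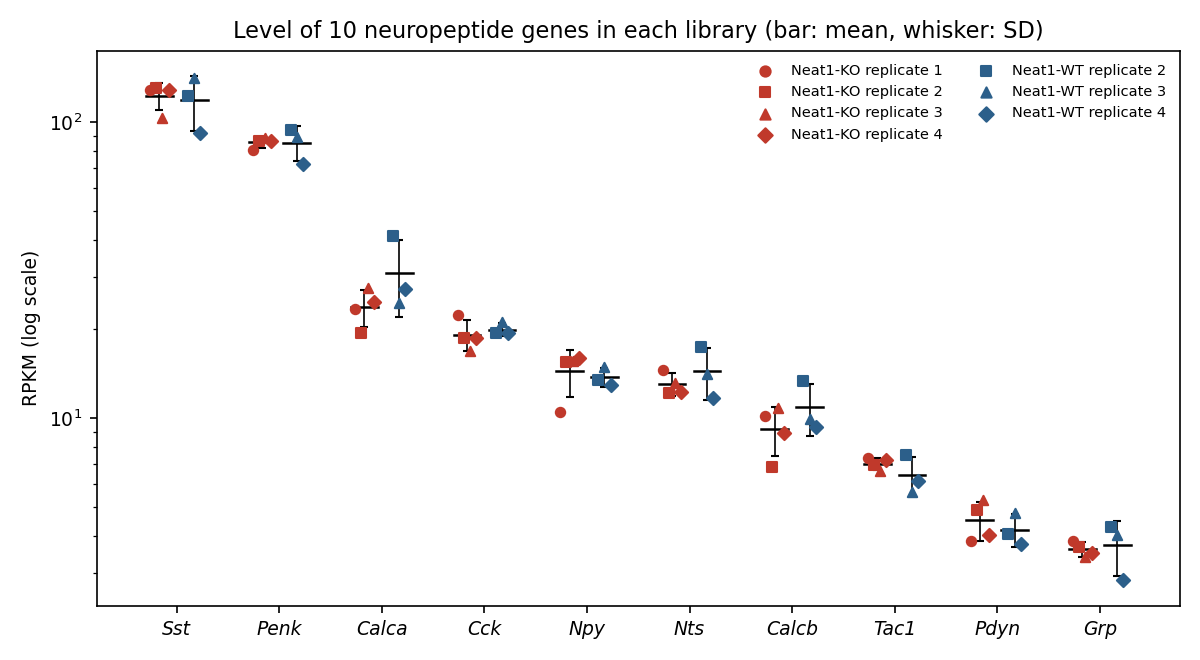
Level of the 10 peptide genes in RPKM (log scale) in each of 4 Neat1-KO (red) and 3 Neat1-WT (blue) libraries, with marker shape for the replicate number, a bar for the mean and whiskers for the SD. Genes run from Sst with 121 RPKM to Grp with 3.66 RPKM, and for every gene the colours overlap.

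Among the genes of excitatory dorsal horn interneurons, *Tac1* (chromosome 6, 7554879 to 7565834) had 24.9, 23.6, 22.5 and 24.6 CPM in the *Neat1*-KO libraries, here and below in the order of the replicate numbers, and 25.6, 19.1 and 20.8 CPM in the *Neat1*-WT libraries. The *Neat1*-KO libraries lay close together and inside the range of the *Neat1*-WT libraries, of which replicate 2 was the highest of all 7. The means were 23.9 ± 1.11 CPM (n = 4, SD) and 21.85 ± 3.36 CPM (n = 3, SD). The log2 fold change, *Neat1*-KO minus *Neat1*-WT, was 0.13 (SE, the standard error, 0.11, 95% interval -0.11 to 0.36, adjusted p = 0.992, edgeR). It was 0.26 without *Neat1*-WT replicate 2, with an unadjusted p of 0.0382 and an adjusted p of 0.9996 (edgeR), and 0.040 without *Neat1*-WT replicate 3, with an unadjusted p of 0.745 and an adjusted p of 0.988 (edgeR). *Tac1* encodes substance P and neurokinin A, and *Tacr1*, the gene of the substance P receptor, had 15.2 ± 1.14 CPM (n = 4, SD) and 15.7 ± 0.922 CPM (n = 3, SD), with a log2 fold change of -0.047.

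*Grp* (chromosome 18, 65872820 to 65886596), whose peptide is known for relaying itch, had the lowest counts of the 10, 82 to 140 per library. It had 5.70, 5.40, 5.01 and 5.19 CPM across the *Neat1*-KO and 6.34, 5.98 and 4.18 CPM across the *Neat1*-WT libraries. All *Neat1*-KO libraries lay between *Neat1*-WT replicates 3 and 4. The log2 fold change was -0.049 (SE 0.17, 95% interval -0.43 to 0.33, adjusted p = 0.996, edgeR). The receptor gene *Grpr* had only 1.13 ± 0.520 CPM (n = 4, SD) and 1.30 ± 0.463 CPM (n = 3, SD), and its 95% interval of -1.04 to 0.69 leaves the direction of any change unknown.

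*Nts* (chromosome 10, 102481756 to 102490486) had 18.2, 15.2, 16.5 and 15.3 CPM across the *Neat1*-KO and 21.7, 17.6 and 14.6 CPM across the *Neat1*-WT libraries. *Neat1*-WT replicates 2 and 4 were the highest and the lowest of all 7. The means of 16.3 ± 1.39 CPM (n = 4, SD) and 17.95 ± 3.59 CPM (n = 3, SD) gave a log2 fold change of -0.14 (SE 0.13, 95% interval -0.43 to 0.14, adjusted p = 0.992, edgeR). Of the neurotensin receptors, *Ntsr2*, which is abundant in astrocytes, was far above *Ntsr1*, with 61.9 against 0.793 RPKM. Neither moved past the threshold, with log2 fold changes of 0.018 and 0.15.

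*Cck* (chromosome 9, 121489824 to 121495694) had 29.1, 24.4, 22.1 and 24.4 CPM across the *Neat1*-KO and 25.3, 27.5 and 25.2 CPM across the *Neat1*-WT libraries. *Neat1*-KO replicate 1 was highest and replicate 3 lowest, with the *Neat1*-WT libraries between them. Its log2 fold change of -0.059 had the narrowest 95% interval next to *Penk*, -0.28 to 0.16 (SE 0.10, adjusted p = 0.992, edgeR). The cholecystokinin receptor gene of the nervous system, *Cckbr*, had a log2 fold change of -0.052 with 13.4 ± 2.09 CPM (n = 4, SD) and 13.9 ± 0.90 CPM (n = 3, SD).

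Of the opioid precursor genes, *Penk* (chromosome 4, 4133531 to 4138819), which encodes the enkephalins, had the most counts of the 10 genes, 2320 to 3700 per library. It had 132, 141, 145 and 141 CPM across the *Neat1*-KO and 154, 146 and 118 CPM across the *Neat1*-WT libraries. The *Neat1*-KO libraries all lay within the *Neat1*-WT range. The means were 139.7 ± 5.46 CPM (n = 4, SD) and 139.6 ± 18.95 CPM (n = 3, SD), a log2 fold change of 0.0002 (SE 0.0895, 95% interval -0.19 to 0.19, adjusted p = 0.9997, edgeR). The interval thus leaves room for a change of up to about 0.19 on the log2 scale in either direction.

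*Pdyn* (chromosome 2, 129686565 to 129699844), the dynorphin precursor gene, had 11.1, 14.2, 15.3 and 11.6 CPM across the *Neat1*-KO and 11.8, 13.8 and 10.8 CPM across the *Neat1*-WT libraries. In each genotype some mice had 10.8 to 11.8 and others 13.8 to 15.3 CPM, and the groups overlapped. The log2 fold change was 0.11 (SE 0.14, 95% interval -0.20 to 0.41, adjusted p = 0.992, edgeR). The opioid receptor genes also gave no call. *Oprm1*, the µ receptor gene, had a log2 fold change of -0.17, *Oprd1* (δ) of 0.12 and *Oprk1* (κ) of -0.060, with means between 5.40 and 12.3 CPM in the genotypes.

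*Sst* (chromosome 16, 23889573 to 23890958), the somatostatin gene, had 92.5, 94.4, 74.4 and 93.0 CPM across the *Neat1*-KO and 88.3, 102 and 66.3 CPM across the *Neat1*-WT libraries. The lowest libraries were *Neat1*-KO replicate 3 and *Neat1*-WT replicate 4, 1 in each genotype, and the others lay between 88.3 and 102 CPM. The log2 fold change was 0.051 (SE 0.13, 95% interval -0.23 to 0.33, adjusted p = 0.996, edgeR). The somatostatin receptor genes *Sstr1* and *Sstr2* had log2 fold changes of 0.13 and 0.094.

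*Npy* (chromosome 6, 49822710 to 49829507), the neuropeptide Y gene, marks inhibitory interneurons of the dorsal horn. It had 5.96, 8.75, 8.86 and 9.08 CPM across the *Neat1*-KO and 7.65, 8.45 and 7.34 CPM across the *Neat1*-WT libraries. *Neat1*-KO replicate 1 was below all other libraries, while the other *Neat1*-KO libraries were above all *Neat1*-WT libraries. With all 7 mice the log2 fold change was 0.066 (SE 0.16, 95% interval -0.29 to 0.42, adjusted p = 0.996, edgeR), and without *Neat1*-KO replicate 1 it was 0.18, also without a call. *Npy1r* and *Npy2r*, its main receptor genes, had log2 fold changes of 0.14 and 0.12.

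For the CGRP genes, *Calca* (chromosome 7, 114631478 to 114636357) had 39.5, 32.6, 46.4 and 41.7 CPM across the *Neat1*-KO and 69.4, 41.3 and 46.0 CPM across the *Neat1*-WT libraries. *Neat1*-WT replicate 2 stood above all others, and *Neat1*-WT replicates 3 and 4 lay among the *Neat1*-KO libraries. The means were 40.05 ± 5.74 CPM (n = 4, SD) and 52.2 ± 15.1 CPM (n = 3, SD), with a log2 fold change of -0.38 (SE 0.16, 95% interval -0.73 to -0.034). *Calca* was the only one of the peptide genes with an unadjusted p under 0.05, 1 of 10 where 4.64% of all genes had one, and so it was by DESeq2 and limma-voom. That p was 0.034, and the adjusted p was 0.992 (edgeR). A two-sided exact permutation test of the mean CPM gave p = 0.2, where 0.0286 is the smallest p that 4 mice against 3 allow. Without *Neat1*-WT replicate 2 the log2 fold change was -0.12 with an unadjusted p of 0.367 and an adjusted p of 0.9996 (edgeR).

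*Calcb* (chromosome 7, 114718643 to 114723365) had 12.9, 8.67, 13.7 and 11.3 CPM across the *Neat1*-KO and 16.8, 12.6 and 11.8 CPM across the *Neat1*-WT libraries. As in *Calca*, *Neat1*-KO replicate 2 was lowest and *Neat1*-WT replicate 2 highest. How many reads of the shared exon shown above are missing from both genes is uncertain. The log2 fold change was -0.25 (SE 0.17, 95% interval -0.61 to 0.12, adjusted p = 0.992, edgeR), and it was -0.073 without *Neat1*-WT replicate 2 and -0.13 without *Neat1*-KO replicate 2. *Calca* made up 75.4% to 80.5% of the counts of both genes in every library, with 77.6 ± 1.68% (n = 4, SD) in *Neat1*-KO and 78.9 ± 1.98% (n = 3, SD) in *Neat1*-WT mice (two-sided exact permutation test, p = 0.4). *Calcrl* and *Ramp1*, whose products together form the CGRP receptor, had log2 fold changes of 0.080 and 0.030.

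**Figure D2:**
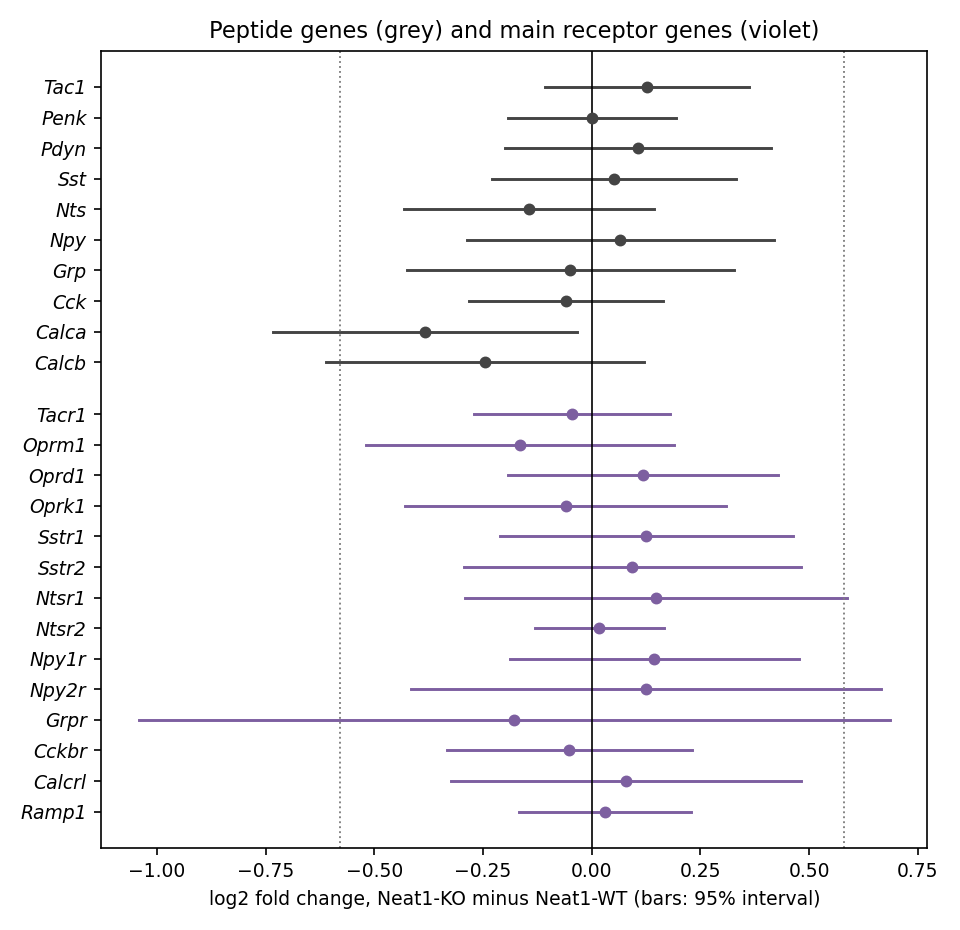
Log2 fold change of each peptide gene (grey) and each main receptor gene (violet), Neat1-KO minus Neat1-WT, from edgeR, with bars for the 95% interval and dotted lines at the threshold of 0.58. The intervals of all genes but Calca include 0, and Calca lies at -0.38 with an interval of -0.73 to -0.034.

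Motor neurons are the cells within the cord best known for CGRP, so markers of the ventral horn were set beside the CGRP genes. Of 24 genes of this list, 24 were tested, none was called and 7 had an unadjusted p under 0.05, all 7 lower in *Neat1*-KO mice. The median log2 fold change of the list was -0.15, against 0.0062 over all genes tested. The 7 genes were *Chodl* (-0.59), a marker of fast motor neurons, *Slc18a3* (-0.30) and *Slc5a7* (-0.40), the acetylcholine and choline transporter genes, *Ahnak2* (-0.25), *Gfra1* (-0.24), *Lhx4* (-0.34) and *Prph* (-0.20), with adjusted p-values of 0.719 to 0.992 (edgeR). *Chat*, the gene of the acetylcholine-making enzyme, had 34.04 and 36.29 CPM on average and a log2 fold change of -0.093. Summed over the list, the level was 1094 to 1242 CPM across the *Neat1*-KO and 1270 to 1457 CPM in *Neat1*-WT libraries, without overlap, and *Neat1*-WT replicate 2 was highest here too. Without that library 3 of the 24 genes had an unadjusted p under 0.05. *Chodl* was called in 4 of 17 alternatives, namely by DESeq2, with the replicate block, without a filter on low counts and without *Neat1*-KO replicate 1. Per 100 CPM of the summed list, *Calca* had 3.41 ± 0.397 CPM (n = 4, SD) and 3.86 ± 0.795 CPM (n = 3, SD), and the genotypes overlapped (two-sided exact permutation test, p = 0.4). *Calcb* had 0.985 ± 0.144 and 1.02 ± 0.12 on the same scale (p = 0.8, exact permutation test). The part of motor neuron content in the difference of *Calca* was not tested beyond these values.

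Sensory ganglia are the other known source of CGRP and substance P, and attached dorsal roots could bring their cells into the sample. Of 24 genes of the ganglion list, 17 were tested and none was called. *Prph*, which is also in the ventral horn list, alone had an unadjusted p under 0.05. Genes of nociceptive ganglion neurons were at or near 0, with at most 5 counts of *Scn10a*, 5 of *Trpv1*, 1 of *Mrgprd*, 0 of *Mrgpra3* and 14 of *Scn11a* in any library. The meningeal list differed widely between mice of the same genotype, with sums of 120 to 329 CPM across the *Neat1*-KO and 111 to 350 CPM in *Neat1*-WT libraries, lowest in *Neat1*-WT replicate 2 and highest in *Neat1*-WT replicate 4. Of its 14 genes *Lum* alone had an unadjusted p under 0.05, with a log2 fold change of 0.66 (adjusted p = 0.992, edgeR).

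*Neat1*-WT replicates 2 and 4 also stood at the ends for the sum of the 10 peptide genes, in the reverse order. That sum was 427 CPM in *Neat1*-WT replicate 2, 394 in replicate 3 and 325 in replicate 4. The *Neat1*-KO libraries lay between 368 and 377 CPM, although their meningeal sums ran from 120 to 329 CPM. The spread between mice was thus larger in the 3 *Neat1*-WT libraries, and the *Neat1*-KO libraries lay inside it. *Neat1*-WT replicate 4, lowest for 5 of the 10 genes, had the highest sum of the myelin list, 47700 CPM, where the other libraries had 37530 to 42840 CPM. The neuron list holds general neuronal genes and genes of excitatory and inhibitory transmission. Its sum was highest in *Neat1*-WT replicate 2 (19410 CPM) and *Neat1*-KO replicate 1 (19090 CPM). The others lay between 17090 and 17920 CPM, with *Neat1*-WT replicate 4 at 17440 CPM. The most abundant genes weigh most in this sum, such as *Nefm* and *Nefl* with means of 4514 and 3008 CPM over the 7 libraries. It does not tell the level of the less abundant neuronal genes in *Neat1*-WT replicate 4. Of the 14 myelin genes 5 had an unadjusted p under 0.05, all 5 lower in *Neat1*-KO mice, and the median of the list was -0.15. The 5 genes were *Ugt8a* (-0.43), *Cldn11* (-0.25), *Ermn* (-0.25), *Mal* (-0.22) and *Mobp* (-0.17), with adjusted p-values of 0.605 to 0.992 (edgeR). The part of dissection in these differences was not tested.

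**Figure D3:**
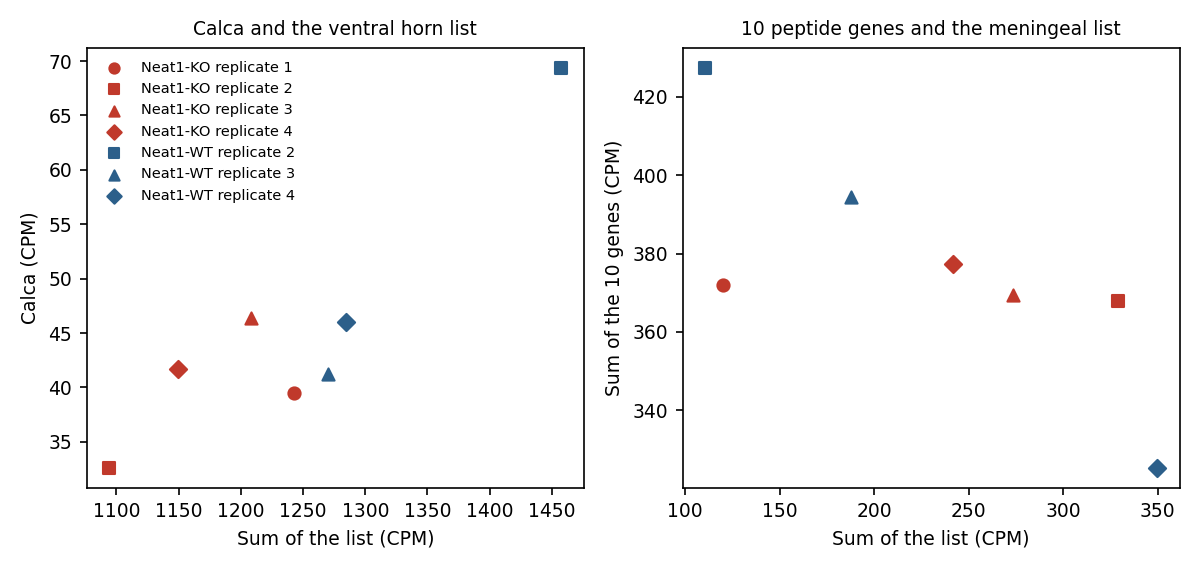
Left, Calca in CPM against the summed CPM of the ventral horn list, and right, the summed CPM of the 10 peptide genes against that of the meningeal list, for 4 Neat1-KO (red) and 3 Neat1-WT (blue) libraries, each axis cut to the range of its values. Neat1-WT replicate 2 (blue square) is highest on the left at 69.4 CPM of Calca, and Neat1-WT replicate 4 (blue diamond) is lowest on the right at 325 CPM.

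The SD of log2 CPM within a genotype, pooled over the genotypes, measures how far mice of one genotype differ. Over the 10 genes its median was 0.21, with 0.14 in *Cck* and *Penk* at the low end and 0.30 in *Calca* at the high end. Over all genes tested the median was 0.17, and 7 of the 10 peptide genes were above it. Counting error alone would give a median of 0.070 for the 10 genes, from 0.026 for *Penk* to 0.13 for *Grp*, so depth limited none of these comparisons as much as the spread between mice did. Without *Neat1*-WT replicate 4 the median of the 10 genes fell from 0.21 to 0.16. *Calca* differed 2.13-fold between its lowest and highest library, *Calcb* 1.94-fold and the other 8 genes 1.31-fold to 1.54-fold.

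Deviations from the genotype mean were compared over the libraries, without a count of the same over all tested genes. In *Neat1*-WT replicate 2, 7 of the 10 genes were above their mean, led by *Calca* (0.45), *Calcb* (0.31), *Nts* (0.29) and *Tac1* (0.24), all on the log2 scale. In *Neat1*-WT replicate 4 the lowest were *Grp* (-0.365), *Sst* (-0.34), *Nts* (-0.28) and *Penk* (-0.23). In each *Neat1*-KO library 5 or 6 of the 10 genes were above the mean. The largest single deviations there were *Npy* in replicate 1 (-0.43) and *Calcb* in replicate 2 (-0.40).

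**Figure D4:**
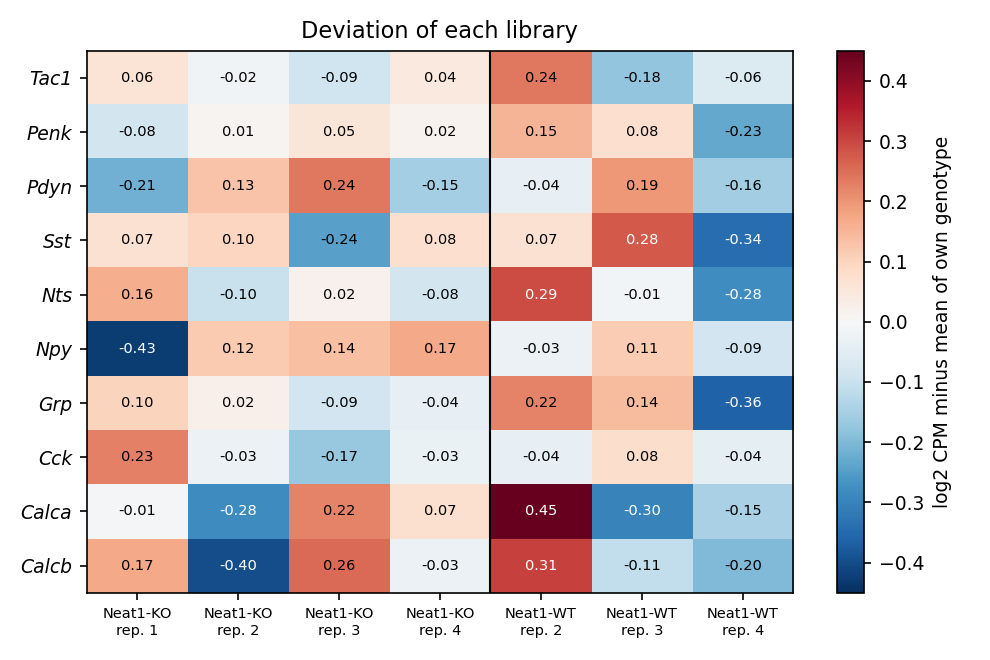
Deviation of each peptide gene (rows) in each library (columns) from the mean of its own genotype, as log2 CPM, red above and blue below. The column of Neat1-WT replicate 4 is below 0 for all 10 genes, and Npy in Neat1-KO replicate 1 reaches -0.43.

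Genes with the most similar pattern were looked up for each peptide gene, as the 3 with the highest Pearson's r of log2 CPM over the 7 libraries after removal of the genotype means. For *Sst* they were *Gm42477* (0.996), *Prkcb* (0.995), the gene of a protein kinase C, and *Dvl2* (0.992). For *Calca* they were *Slc36a4* (0.995), *Rxfp1* (0.992) and *Cep70* (0.989), for *Npy* *Sipa1l1* (0.996), *Scarf1* (0.994) and *Gm42829* (0.99), and for *Nts* *Gm15912* (0.991), *Nxph2* (0.99) and *Gm15427* (0.989). None of the 30 genes found was another peptide gene of the 10. Between peptide genes, r ran from -0.733 (*Npy* and *Cck*) to 0.868 (*Calca* and *Calcb*). The 30 genes are the best of 16543 genes compared over 7 libraries, which share depth and dissection. All these values are therefore a description without a test.

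The rest of the pathway was read from lists of genes. Of 28 receptor genes 25 were tested, none was called, and 1 had an unadjusted p under 0.05, a share of 4% beside 4.64% of all genes. It was *Npy5r*, another neuropeptide Y receptor gene, with 4.16 ± 0.912 CPM (n = 4, SD) in *Neat1*-KO and 5.94 ± 0.87 CPM (n = 3, SD) in *Neat1*-WT mice (log2 fold change -0.52, SE 0.20, adjusted p = 0.992, edgeR). The receptor genes as a list had a median log2 fold change of 0.030. Of 21 genes that cut, amidate or store peptides, 21 were tested and none had an unadjusted p under 0.05. The largest differences among them were in *Pcsk1n*, which encodes an inhibitor of a prohormone convertase (0.21), and *Scg5*, which encodes a chaperone of another one (0.17). The convertase gene *Pcsk2* had a log2 fold change of 0.034 and *Cpe*, the carboxypeptidase gene, of 0.060. The list had 16 genes with a positive and 5 with a negative log2 fold change, with a median of 0.041. Of 12 peptidase genes that break peptides down none had an unadjusted p under 0.05, with *Dpp4* (-0.56) and *Anpep* (0.30) furthest from 0.

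Other neuropeptide genes were tested for 19 of 29 list members, since the other 10 had too few counts, among them *Avp* and *Oxt* with at most 0 and 4 counts. None was called. *Nmu*, the neuromedin U gene, had 4.80 ± 1.71 CPM (n = 4, SD) and 7.27 ± 1.275 CPM (n = 3, SD), a log2 fold change of -0.61 (SE 0.26, adjusted p = 0.992, edgeR). *Tac2*, the neurokinin B gene and a relative of *Tac1*, had 18.9 ± 2.69 CPM (n = 4, SD) and 23.2 ± 3.14 CPM (n = 3, SD), a log2 fold change of -0.30 (SE 0.13, adjusted p = 0.992, edgeR). Both had an unadjusted p under 0.05, at 0.0345 and 0.0376 (edgeR), where *Tac1* had 0.26, and both are also in the list of dorsal horn markers. In that list 27 of 28 genes were tested and 3 had an unadjusted p under 0.05, *Trhr* (-0.36), the thyrotropin-releasing hormone receptor gene, being the third. Its median log2 fold change was 0.018, with 14 genes above and 13 below 0, and its summed level overlapped between the genotypes, at 744 to 798 CPM across the *Neat1*-KO and 774 to 798 CPM in *Neat1*-WT libraries. Of the genes of the neuron list, *Slc6a5*, the glycine transporter gene of inhibitory neurons, and *Gad1*, the gene of a GABA-making enzyme, had an unadjusted p under 0.05 and were higher in *Neat1*-KO mice by 0.20 and 0.14, with adjusted p-values of 0.992 (edgeR). Of the lists that stand for other material, 8 of 10 blood genes and 16 of 16 immediate early genes were tested and none had an unadjusted p under 0.05. Of 16 genes of the brainstem and forebrain 8 were tested, and *Ddc*, which encodes an enzyme of dopamine and serotonin synthesis, was higher by 0.48 (adjusted p = 0.840, edgeR), while *Otx2* had 0 counts in every library.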

How the data were processed

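RNA from the cervical cord of 7 mice was made into directional poly(A) libraries by the authors, who trimmed the reads with Trimmomatic 0.38, aligned them to mm10 with HISAT2 2.1.0 and counted unique alignments with featureCounts 1.6.3. They deposited raw counts per Ensembl gene, not normalized. Symbols and positions are from GENCODE M21 (GRCm38), which names 55227 of 55487 genes. The genes and lists were chosen with earlier results of these data known. Genes passing filterByExpr were given TMM factors and fitted with the quasi-likelihood model of edgeR 4.0.16 (R 4.3.3), with Benjamini-Hochberg adjustment over all 18449. Standard errors are the absolute log2 fold change divided by the root of F. Single genes were also compared by exact permutation over the 35 assignments. Log2 CPM used a prior count of 2. Alternatives were DESeq2 1.42.0, limma-voom (3.58.1), other scaling and filters, a replicate block, covariates and each library left out. The code was tested on simulated data. Named genes were the 10, their main receptors and, per list, those at an unadjusted p under 0.05, or otherwise those furthest from 0. In the blood and immediate early lists, which had none under 0.05, no gene was named. Some other genes were named for reference. Lists for blood, other brain regions and immediate early genes served as further checks. BLAST 2.17.0, Python 3.11.15, pandas 2.3.3 and matplotlib 3.10.9 were also used.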

Additional observations from a re-analysis of the deposited data

Results flagged for a closer look

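In the 4 *Neat1*-KO libraries, each of the 10 genes was checked for a library far from the others, by the gap to the nearest library as a share of the range, with Dixon's limit for 4 samples at the 95% level. Chance passes about 5% of such checks. *Sst* passed with a gap of 0.906, since *Neat1*-KO replicate 3 had 74.4 CPM where the others had 92.5 to 94.4 CPM. *Npy* passed with 0.894, since *Neat1*-KO replicate 1 had 5.96 CPM where the others had 8.75 to 9.08 CPM. The 3 *Neat1*-WT libraries were too few for this check.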

How the results depend on the processing

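No peptide gene was called under any alternative tried, DESeq2 and limma-voom included. The number of genes called among all tested was 124 without a filter on low counts, 27 by DESeq2 and 39 with the replicate block, against 6 here, and 3 to 31 with a library left out, 3 without *Neat1*-WT replicate 3, 11 without *Neat1*-WT replicate 4 and 31 without *Neat1*-KO replicate 1. Same-numbered libraries of the genotypes did not deviate together (correlations across genes of -0.202, -0.122 and -0.015 for numbers 2 to 4), so the numbers were not taken as pairs.

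*Calca* was lower under every alternative. Its adjusted p ranged from 0.0199 without the filter, where its log2 fold change of -0.39 stayed under the minimum, to 1. Its unadjusted p was under 0.05 in 11 of 17 alternatives, and over it without *Neat1*-KO replicate 2 or *Neat1*-WT replicate 2, with robust dispersion, with the replicate block (log2 fold change -0.35, adjusted p = 0.997, edgeR) and with *Xist* or the neuron list as a covariate. *Xist* had at most 0.161 CPM in all libraries, so that covariate holds mostly counting noise. The counts of peptide genes at an unadjusted p under 0.05, chosen after seeing the data, were thus 0 with robust dispersion, the replicate block, either covariate or without *Neat1*-KO replicate 2, and 1 otherwise (*Tac1* without *Neat1*-WT replicate 2).

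The sign turned under at least 1 alternative in *Penk*, *Sst*, *Nts*, *Npy* and *Grp*. *Penk* had -0.0055 with median-of-ratios factors, -0.0055 by DESeq2, -0.0037 without the filter, 0 (below 0 before rounding) with a filter of 0.5 CPM in at least 1 library, and -0.11 to 0.078 with a library left out, at -0.0039, -0.018 and -0.0047 when *Neat1*-KO replicate 2, 3 or 4 and -0.11 when *Neat1*-WT replicate 4 was left out. *Sst* had -0.018 with *Xist* as a covariate and -0.10 to 0.20 with a library left out, at -0.10 without *Neat1*-WT replicate 4. *Nts* had -0.27 to 0.016, at 0.016 without *Neat1*-WT replicate 2. With the neuron list as a covariate *Npy* had -0.053 and *Grp* 0.048, and *Grp* had -0.21 to 0.064 with a library left out, at 0.064 and 0.013 without *Neat1*-WT replicate 2 or 3. With a library left out, *Pdyn* had 0.023 to 0.21, *Cck* -0.14 to -0.0054 and *Calcb* -0.34 to -0.073, with no change of sign. The cause was not tested. The median over all genes moved by under 0.1 in each.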
